A study of Homo sapiens with 6 samples.

Results

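The E2F transcription factors and their DP partners were described in HepG2 cells, a human liver cancer line. The members, chosen by symbol, were E2F1 to E2F8, TFDP1 and TFDP2, 10 of the 20026 genes in the deposited table, and all 10 passed the filter on low counts in each comparison. RNA-seq covered 6 libraries in 3 groups of 2. Scr cells had received the empty CRISPR/Cas9 vector PX458 and carry the genotype WT in the labels, miR-23a KO cells had received guides on both sides of the mature miR-23a, and miR-27a KO cells guides on both sides of the mature miR-27a. Edited cells were sorted singly and grown as colonies, so a difference between clones and the loss of a miRNA cannot be told apart. By the study's qPCR, neither edit was specific to 1 miRNA of the cluster: miR-23a KO clones also had less miR-27a-3p and miR-24-3p, and miR-27a KO clones less miR-24-3p and slightly more miR-23a-3p. Mature miRNAs were not measured here. The labels do not say whether libraries of a group are separate clones or cultures, so p-values measure only the spread between these samples. The labels also call the cells triple-negative, a term of breast cancer, and name another library kit than the study's methods. The edited miRNA genes and their host transcript were not analysed here, so the groups rest on the labels. Column names say FPKM, but the values were read as counts, which stays an assumption. Library totals ran from 14405250 to 16515261 counts.

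Cell type markers were read first, in CPM (counts scaled to a common library size). All 8 hepatocyte and HepG2 markers were detected in every library, with sums of 26598 and 34864 for Scr, 29189 and 30705 for miR-23a KO, and 19212 and 18946 for miR-27a KO. After miR-27a KO, 3 of the 8 lay above both Scr libraries, 4 below and 1 overlapped, where 32.4% of all genes tested lay above and 31.9% below. SERPINA1, which had the highest mean over the libraries, was among those above, with 10741 and 11023 CPM in the Scr libraries and 12762 and 12470.3 in those of miR-27a KO. Among those below, ALB had 10419 and 15110.0 CPM, then 2087 and 2151, and AFP 2589 and 3913, then 185 and 192. Of 3 leukocyte markers, PTPRC and CD3E stayed at or under 0.473 CPM, and nearly all of the sums of 70.8 to 162 came from CD68. The 3 endothelial markers in the table summed to 3.35 to 6.83 CPM, mostly PECAM1. The 2 fibroblast markers in the table summed to 17.5 and 29.2 CPM for Scr, 29.8 and 19.7 for miR-23a KO, and 5.75 and 5.12 for miR-27a KO, nearly all PDGFRB. The part of these differences in the values of the E2F genes was not tested.

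E2F proteins bind promoters of genes for the G1/S transition and DNA replication, most of them as dimers with a DP protein. E2F1, E2F2 and E2F3 are known as activators that the pocket protein RB1 holds in check. E2F4 and E2F5 act mainly as repressors with RBL1 and RBL2, E2F6 represses without a pocket protein, and the atypical E2F7 and E2F8 repress without a DP partner.

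The mature miRNAs of the edited loci are shown because their seed, bases 2 to 8 in capitals, sets the word sought in the members' transcripts. RefSeq (GRCh38.p14) places miR-23a-3p at chr19:13836595-13836615 and miR-27a-3p at chr19:13836447-13836467, both on the minus strand.
miR-23a-3p: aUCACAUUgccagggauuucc
miR-27a-3p: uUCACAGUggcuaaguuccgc

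The 7-base word complementary to each seed, AATGTGA for miR-23a-3p and ACTGTGA for miR-27a-3p, was sought in transcripts of GENCODE 29, on their own strand, taking for each gene its longest 3'-UTR. Of the 20026 genes 17919 (89.5%) were matched, all 10 members among them. The miR-23a-3p word was present in E2F2, E2F6, E2F8 and TFDP2, and in 20.7% of the 15933 genes with a 3'-UTR. The miR-27a-3p word was present in E2F5, E2F6, E2F7 and TFDP2, and in 18.3% of those genes. The sites are shown, with the word in capitals, to be read beside the levels of their genes, except that of E2F5. Of the members with a miR-27a-3p word, E2F7 and TFDP2 rose after miR-27a KO, E2F5 fell and E2F6 did not pass the test. Over all genes tested 3.52% rose and 6.74% fell. The miR-24-3p word, CTGAGCC, was sought too and stood in none of the members, where 19.9% of genes with a 3'-UTR held it. A match describes letters and does not show a working site.
E2F2, miR-23a-3p word at base 1646 of the 3'-UTR: ttcagggtggggcccAATGTGAtct
E2F6, miR-23a-3p word at base 1195 of the 3'-UTR: gtacacacgaatttaAATGTGAtgt
E2F8, miR-23a-3p word at base 119 of the 3'-UTR: gttggggatttgttcAATGTGAaat
TFDP2, miR-23a-3p word at base 3822 of the 3'-UTR: gttgctccaagtataAATGTGActt
E2F6, miR-27a-3p word at base 1844 of the 3'-UTR: gtagtttaccattagACTGTGAgct
E2F7, miR-27a-3p word at base 788 of the 3'-UTR: gtcaagaccaaaataACTGTGAatg
TFDP2, miR-27a-3p word at base 4456 of the 3'-UTR: agcatttgagtacctACTGTGAgca

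Promoters of 300 bases (250 before the start and 50 after, RefSeq, GRCh38.p14) were searched on both strands for the E2F words TTTCCCGC, TTTCGCGC, TTTGCCGC and TTTGGCGC, found in 3.3% of 35116 promoters. E2F1 held 2, first bases 33 and 20 before its start. E2F2, TFDP1 and the first start of E2F3 held 1 each, at 42, 120 and 53 bases before the start. E2F4, E2F6, E2F7, the second start of E2F3 and the 3 starts of TFDP2 held none in this window, and E2F5 and E2F8 had no entry. CCAAT, found in 34.6% of promoters, occurred 3 times in E2F1, 4 times in E2F7 and at the first start of E2F3, and 2 times at 1 start of TFDP2. The CHR words TTTGAA and TTCGAA, found in 16.4% of promoters, occurred at the first start of E2F3 and at 2 starts of TFDP2. The promoters of E2F1, which held 2 E2F words, and of E2F7, which was called in miR-27a KO, are shown with E2F words in capitals, which leaves E2F7 in lower case throughout. The letters say nothing of a factor's binding.
E2F1, minus strand, chr20:33686336-33686635: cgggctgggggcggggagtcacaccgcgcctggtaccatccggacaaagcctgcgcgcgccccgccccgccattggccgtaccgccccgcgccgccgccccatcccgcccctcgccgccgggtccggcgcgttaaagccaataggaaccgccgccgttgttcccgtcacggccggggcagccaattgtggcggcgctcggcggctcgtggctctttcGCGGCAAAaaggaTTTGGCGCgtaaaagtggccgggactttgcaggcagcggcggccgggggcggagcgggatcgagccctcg
E2F7, minus strand, chr12:77065520-77065819: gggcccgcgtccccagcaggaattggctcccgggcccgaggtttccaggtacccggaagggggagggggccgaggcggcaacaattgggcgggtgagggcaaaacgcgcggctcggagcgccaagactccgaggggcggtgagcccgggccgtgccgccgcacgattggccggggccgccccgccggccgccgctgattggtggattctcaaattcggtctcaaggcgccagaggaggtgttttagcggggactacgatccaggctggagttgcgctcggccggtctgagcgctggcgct

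The distance between libraries of a group set the precision. Among genes with 40 or more counts in both libraries together, the typical squared deviation was 12.05 times sampling noise for Scr, 122 times for miR-23a KO and 1.81 times for miR-27a KO. All 10 members lay within sampling error of each other between the miR-27a KO libraries, 4 between the Scr libraries and 0 between the miR-23a KO libraries, where 84.01%, 43.1% and 13.8% of those genes did. The miR-23a KO distance moved with GC content. Replicate 1 over replicate 2 had a median log2 ratio of 1.07 at 55% GC or more and -1.03 under 45%, where Scr had 0.16 and -0.27. Among the members, E2F1, E2F4 and E2F2 (62.5, 59.3 and 57.5% GC) had ratios of 1.78, 0.97 and 0.31 between the miR-23a KO libraries. The other 7 members, from 38.3% GC in E2F5 to 46.7% in TFDP2, had ratios from -1.94 to -0.34. What set these ratios was not tested.

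**Figure D1:**
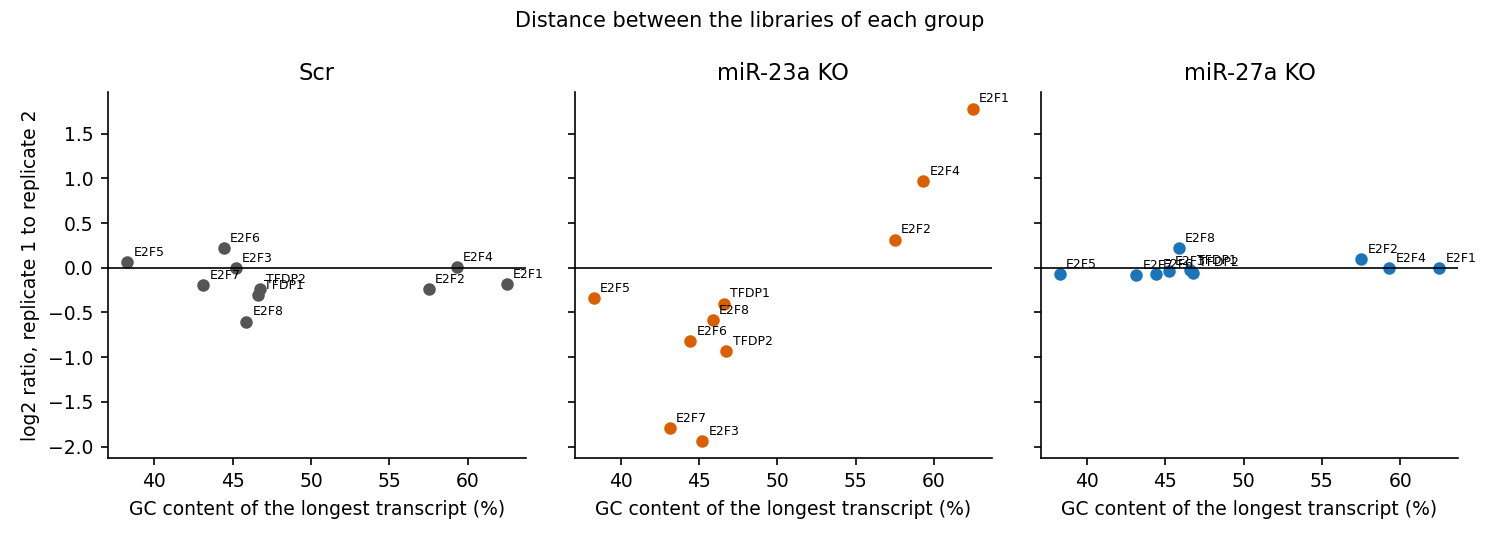
Log2 ratio of replicate 1 to replicate 2 (vertical axis) against GC content of the longest annotated transcript in percent (horizontal axis), with 1 point per E2F or DP gene and 1 panel per group. For miR-23a KO the points run from -1.94 for E2F3 to 1.78 for E2F1.

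Levels of different genes were set side by side in CPM per kb of median annotated transcript length. Among the Scr libraries E2F4 (297 ± 0.504, SD, n = 2) and TFDP1 (193 ± 29.04) stood highest. TFDP2 (54.2 ± 6.45), E2F1 (36.96 ± 3.30), E2F5 (33.2 ± 1.04), E2F2 (17.96 ± 2.08) and E2F6 (15.6 ± 1.67) came next, and E2F7 (4.84 ± 0.464), E2F3 (4.23 ± 0.00185) and E2F8 (1.81 ± 0.531) stood lowest. E2F1 and E2F5 did not differ by more than their SDs together, and neither did E2F2 and E2F6. The order depended on the length used. Per longest transcript, E2F4 was at 83.7 ± 0.142, TFDP1 at 60.8 ± 9.16 and TFDP2 at 3.81 ± 0.454 CPM per kb. Per median protein-coding transcript, a length chosen after seeing the data, E2F4 was at 172 ± 0.292 and TFDP1 at 186 ± 28.00, which did not differ by more than their SDs together.

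**Figure D2:**
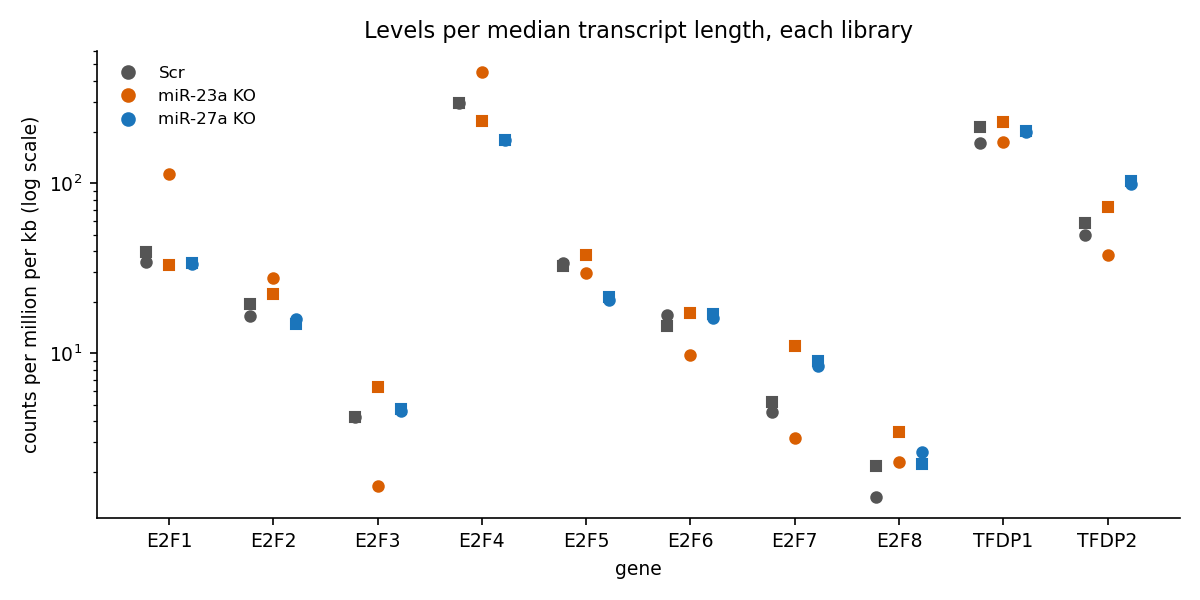
CPM per kb of median transcript length on a log scale (vertical axis) for each E2F and DP gene (horizontal axis), with circles for replicate 1 and squares for replicate 2, coloured by group. E2F4 and TFDP1 lie highest and E2F8 lowest among the Scr points.

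Which E2F and DP genes differed after either knockout was asked by fitting each knockout against Scr. Calls needed more than a 1.5-fold change and an adjusted p under 0.05. After miR-27a KO, TFDP2 and E2F7 rose while E2F4 and E2F5 fell. Thus 2 of 10 members were called higher, where 3.52% of the 13820 genes tested were, and 2 of 10 lower, where 6.74% were. At an unadjusted p under 0.05 stood 4 members and 4447 of the 13820 genes. At an adjusted p under 0.001, the study's threshold, edgeR called 0 members and 0.0289% of genes. DESeq2 put E2F4 (adjusted p = 2.56e-07) and TFDP2 (adjusted p = 1.55e-05) under that threshold. How many of all genes DESeq2 put there was not counted, so these members cannot be set against a share. With calls at an adjusted p under 0.05, DESeq2 called 564 of 13820 genes higher and 1058 lower. The members' smallest adjusted p of limma-trend was 0.00825. After miR-23a KO, edgeR's quasi-likelihood test called 0 members higher and 0 lower, where 0% and 0% of 13786 genes were called, and 0 at 0.001, where 0% were. At an unadjusted p under 0.05 stood 0 members and 332 genes, and DESeq2 and limma-trend called 0 members. The members' SEs ran from 0.433 to 0.721 there and from 0.0739 to 0.285 after miR-27a KO, on the log2 scale. The members' median log2 fold change was 0.070 after miR-27a KO, beside 0.010 over all genes, and 0.20 after miR-23a KO, beside 0.16. These comparisons share the Scr libraries. In bulk cells, fewer cycling cells and less RNA per cell cannot be told apart.

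**Figure D3:**
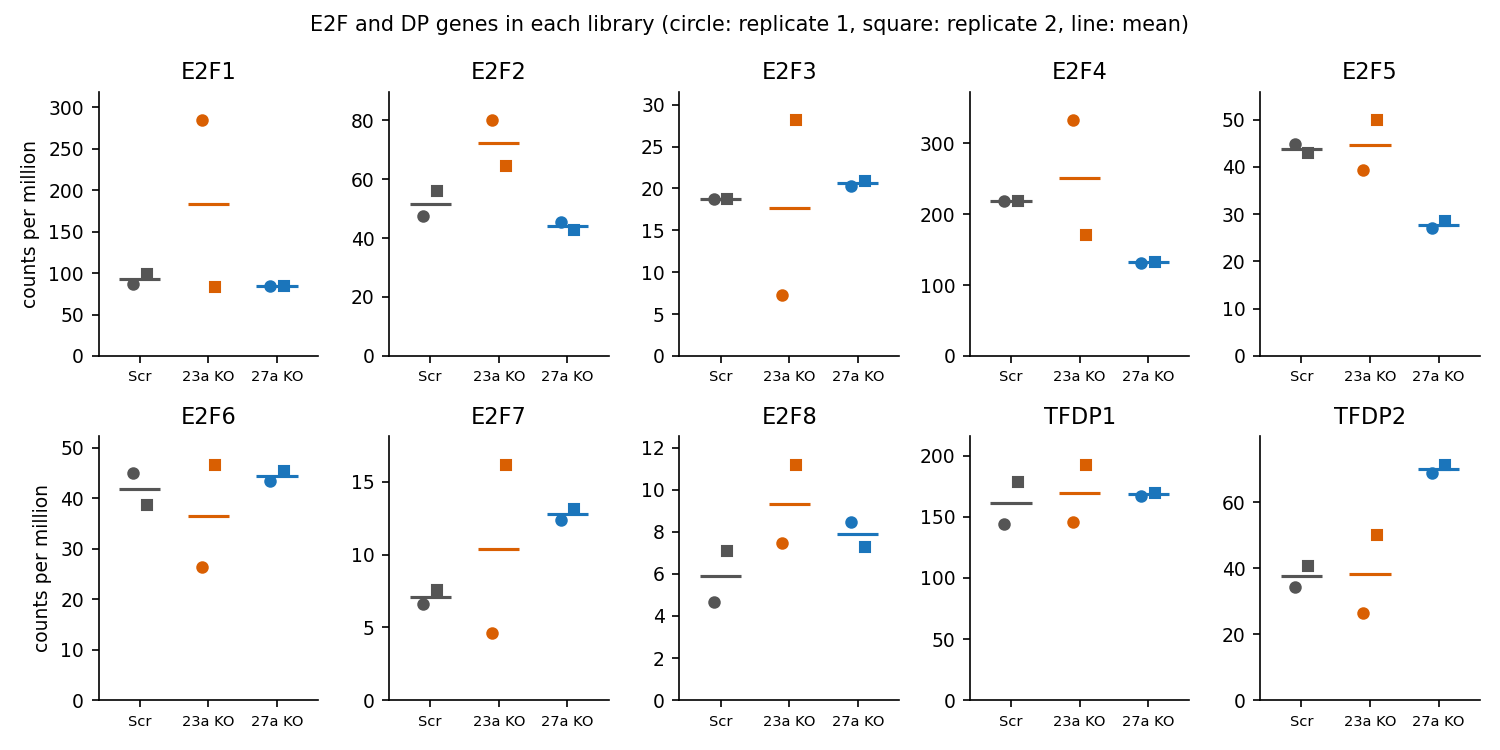
CPM (vertical axis) of each E2F and DP gene in the 6 libraries, with circles for replicate 1, squares for replicate 2 and lines for group means. The miR-27a KO libraries lie close together, and those of miR-23a KO lie apart, as at 284 and 82.8 for E2F1.

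**Figure D4:**
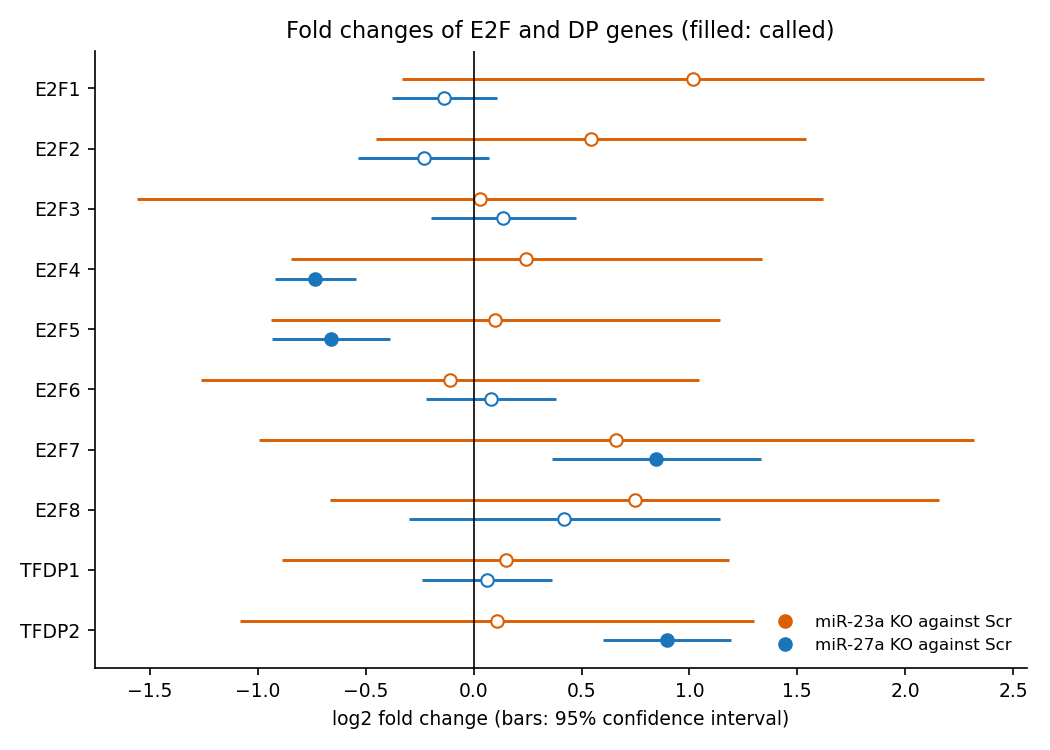
Log2 fold change against Scr (horizontal axis) with its 95% confidence interval for each E2F and DP gene, filled where called. Filled points are E2F4, E2F5, E2F7 and TFDP2 after miR-27a KO, and each interval of miR-23a KO spans 0.

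E2F1 (gene ID 1869, chr20:33675683-33686404), an activator that drives entry into S phase, had CPM of 86.7 and 98.4 in the Scr libraries, 284 and 82.8 in those of miR-23a KO, and 84.2 and 84.7 in those of miR-27a KO. Replicate 1 of miR-23a KO stood above every other library, while replicate 2 lay below both Scr libraries. Its log2 fold change after miR-23a KO was 1.02 (SE 0.587, 95% confidence interval -0.33 to 2.37) and did not pass edgeR's quasi-likelihood test (adjusted p = 0.9996, Benjamini-Hochberg). Left without replicate 1 of that group it was -0.12, and without replicate 2 1.62, then called by edgeR (adjusted p = 0.00105). After miR-27a KO it was -0.14, and 0.16 with GC content and length corrected. E2F2 (gene ID 1870, chr1:23506430-23531220), an activator too, had CPM of 47.3 and 55.8 in the Scr libraries, 79.9 and 64.3 in those of miR-23a KO, and 45.4 and 42.6 in those of miR-27a KO. Both miR-23a KO libraries lay above Scr and both miR-27a KO libraries below, and neither difference passed the test. The log2 fold changes were 0.54 and -0.23, the latter 0.026 with GC content and length corrected. E2F3 (gene ID 1871, chr6:20401906-20493715), the remaining activator, had CPM of 18.7 and 18.7 in the Scr libraries, 7.30 and 28.1 in those of miR-23a KO, and 20.4 and 20.9 in those of miR-27a KO. The miR-23a KO libraries lay on either side of Scr, and no difference passed the test.

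E2F4 (gene ID 1874, chr16:67192169-67198918), a main repressor E2F of resting cells, had CPM of 219 and 219 in the Scr libraries, 332 and 170.3 in those of miR-23a KO, and 132 and 132 in those of miR-27a KO. The miR-27a KO libraries lay below all others, 2 of 2 under both Scr libraries, and those of miR-23a KO on either side of Scr. Its log2 fold change after miR-27a KO was -0.73 (SE 0.0739, 95% confidence interval -0.92 to -0.55), and edgeR's quasi-likelihood test gave an adjusted p of 0.00857 (Benjamini-Hochberg). With GC content and length corrected it was -0.45, less than 1.5-fold and not called. E2F5 (gene ID 1875, chr8:85177225-85217158), a repressor close to E2F4, had CPM of 44.8 and 42.9 in the Scr libraries, 39.4 and 49.9 in those of miR-23a KO, and 27.1 and 28.5 in those of miR-27a KO. Here too the miR-27a KO libraries lay below all others. The log2 fold change was -0.66 (SE 0.108, 95% confidence interval -0.93 to -0.39), and the same edgeR test gave an adjusted p of 0.0232. It was -0.91 with GC content and length corrected. E2F6 (gene ID 1876, chr2:11444375-11466177), which represses with Polycomb proteins, had CPM of 45.05 and 38.7 in the Scr libraries, 26.4 and 46.7 in those of miR-23a KO, and 43.3 and 45.5 in those of miR-27a KO. Its groups overlapped in both comparisons.

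E2F7 (gene ID 144455, chr12:77021247-77065580), an atypical repressor, had CPM of 6.60 and 7.57 in the Scr libraries, 4.64 and 16.2 in those of miR-23a KO, and 12.4 and 13.1 in those of miR-27a KO. Both miR-27a KO libraries lay above Scr, on 205 and 218 counts against 95 and 112. The log2 fold change was 0.85 (SE 0.192, 95% confidence interval 0.36 to 1.33), and edgeR's quasi-likelihood test gave an adjusted p of 0.0462 (Benjamini-Hochberg). The call was lost with the replicate block, where edgeR's adjusted p was 0.0548, and with no filter on low counts, where it was 0.0657. E2F8 (gene ID 79733, chr11:19224063-19241620), the other atypical member, had CPM of 4.66 and 7.09 in the Scr libraries, 7.45 and 11.2 in those of miR-23a KO, and 8.48 and 7.29 in those of miR-27a KO. Both knockouts lay above Scr and neither passed the test, with log2 fold changes of 0.75 after miR-23a KO and 0.42 after miR-27a KO. Left without Scr replicate 2, the latter was 0.76 and called.

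TFDP1 (gene ID 7027, chr13:113584721-113641470), the main DP partner, had CPM of 144 and 178 in the Scr libraries, 146 and 193 in those of miR-23a KO, and 167 and 169.7 in those of miR-27a KO. Its groups overlapped in both comparisons. TFDP2 (gene ID 7029, chr3:141944428-142149544), the second DP partner, had CPM of 34.4 and 40.7 in the Scr libraries, 26.2 and 49.99 in those of miR-23a KO, and 68.7 and 71.3 in those of miR-27a KO. The miR-27a KO libraries lay above all others. The log2 fold change was 0.89 (SE 0.117, 95% confidence interval 0.60 to 1.19), and edgeR's quasi-likelihood test gave an adjusted p of 0.0149 (Benjamini-Hochberg). It was 0.71 with GC content and length corrected. The 4 calls after miR-27a KO were lost without replicate 1 of that group, without its replicate 2, and when all 6 libraries shared 1 estimate of spread. In that shared fit the log2 fold changes lay between -0.73 for E2F4 and 0.90 for TFDP2.

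Members whose libraries did not overlap Scr were counted too. After miR-23a KO, 2 lay above (E2F2 and E2F8, where 8.87% of genes did) and 0 below (where 14.9% did). After miR-27a KO, 4 lay above (E2F3, E2F7, E2F8 and TFDP2, where 32.4% did) and 4 below (E2F1, E2F2, E2F4 and E2F5, where 31.9% did), shares near those of all genes for a list of 10. Between the knockouts, edgeR's quasi-likelihood test called 0 members higher and 0 lower, where 0% and 0% of 13841 genes were called. At an unadjusted p under 0.05 stood 0 members and 1207 genes, and DESeq2 and limma-trend called 0 members. E2F2 had the smallest adjusted p of edgeR, 0.664. Both miR-23a KO libraries lay above those of miR-27a KO for E2F2, E2F4 and E2F5 (where 18.7% of genes did) and below for TFDP2 (where 20.8% did). Without miR-23a KO replicate 2, edgeR called 3 members higher and 4 lower, while 3584 of 14207 genes were called higher and 3719 lower.

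Some genes ran close to a member over the 6 libraries. By root mean square distance of centred log2 CPM, the 5 of 11421 genes nearest E2F1 were ATAD3B (0.0403), TIMM13 (0.0506), ATAD3A (0.0690), FRMD8 (0.0738) and LRRC14 (0.0791), where the median gene was at 0.747. Those nearest E2F8 were CUL5 (0.0729), DEPDC1B (0.0882), IL1RAP (0.0893), CAPZA1 (0.0895) and LOC389831 (0.0919), with the median at 0.547. Among those nearest TFDP1 were PGRMC1 (0.0243), SERAC1 (0.0250), DCLRE1B (0.0472) and MICAL3 (0.0613), with the median at 0.432. The members' own root mean square deviations from their means were 0.641 for E2F1, 0.369 for E2F8 and 0.150 for TFDP1. For E2F1 most of it came from miR-23a KO replicate 1, at 284 CPM, where all other libraries had 82.8 to 98.4. Nearness to E2F1 therefore rests largely on that library.

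The genes of the G1/S transition and replication that E2F activates were a list of 42, all tested. After miR-27a KO, 4 rose and 1 fell, where 3.52% and 6.74% of all genes tested did. Both libraries lay above Scr for 27 and below for 4, where 32.4% and 31.9% of all genes did, and the median log2 fold change was 0.23, beside 0.010 over all genes. Among those that rose, RRM1, a subunit of ribonucleotide reductase, had 31.4 and 41.00 CPM for Scr and 57.8 and 62.98 for miR-27a KO, a log2 fold change of 0.73 (adjusted p = 0.0382, edgeR's quasi-likelihood test). In the same order, PRIM1, a primase subunit, had 21.6 and 22.2, then 36.8 and 34.3 CPM (0.70 on the log2 scale). MCM4, of the replicative helicase, had 168 and 208, then 289.7 and 297 (0.64). For each of these genes both miR-27a KO libraries lay above Scr. CCNE1, which encodes cyclin E1, fell, with 94.6 and 75.9 CPM for Scr and 43.6 and 48.95 for miR-27a KO, a log2 fold change of -0.88. The count called higher was 3 without Scr replicate 1 (over all genes 1030 of 14208) and 11 without its replicate 2 (over all genes 1908 of 14296). It was 1 without miR-27a KO replicate 1 (111 of 14302) and 0 without its replicate 2 (82 of 14292).

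After miR-23a KO, edgeR called 0 of the 42 target genes, where 0% of 13786 genes were called. At an unadjusted p under 0.05 stood 2 of the 42 and 332 of all genes, and DESeq2 and limma-trend called 0 of the 42. The median log2 fold change was 0.49, beside 0.16 over all genes, and 19 lay above Scr and 1 below, where 8.87% and 14.9% of all genes did. CCNE2, which encodes cyclin E2, had 0.626 and 1.15 CPM for Scr and 2.51 and 3.93 for miR-23a KO. In the same order, BRCA1, of DNA repair, had 9.18 and 9.86, then 9.96 and 41.2 CPM. MCM10, of replication initiation, had 11.1 and 16.5, then 18.2 and 50.7, and CDK1, the mitotic kinase, 17.9 and 23.1, then 43.3 and 47.1. Each of these lay above Scr without passing the test, BRCA1 and MCM10 with far more in replicate 2. The count called higher was 6 when replicate 1 of miR-23a KO was left out (over all genes 338 of 14417). Without its replicate 2 it was 9 (over all genes 1697 of 14136), with 1 called lower (over all genes 933 of 14136).

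**Figure D5:**
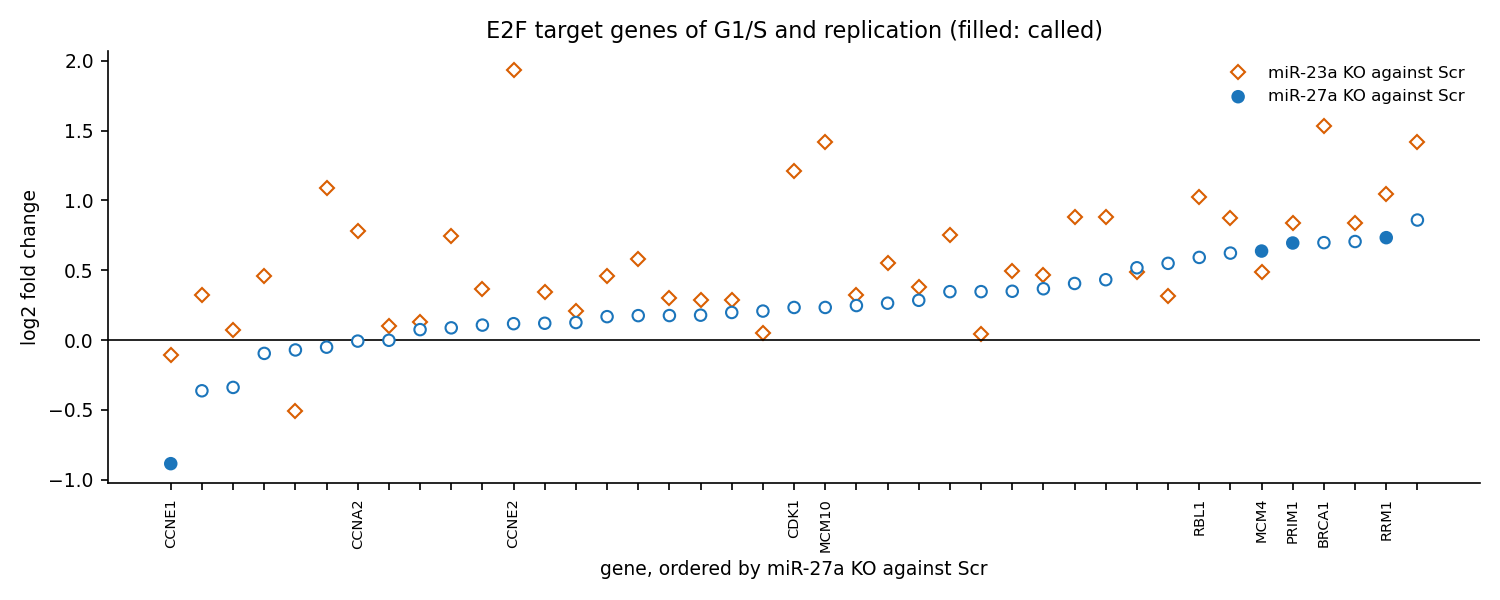
Log2 fold change (vertical axis) of all but 1 of the 42 E2F target genes (horizontal axis, ordered by miR-27a KO, with names for genes in the text) against Scr, with circles for miR-27a KO and diamonds for miR-23a KO, filled where called. Filled circles mark CCNE1 below 0 and MCM4, PRIM1 and RRM1 above.

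The kinases that release E2F from pocket proteins, and their inhibitors, gave 14 genes tested of 15. After miR-27a KO, 5 fell, where 6.74% of all genes did, but this count includes CDKN2B, whose call the filter favoured. Called higher by edgeR were 0, with 0 at an unadjusted p under 0.05 in that direction and 0 by DESeq2 or limma-trend. The median log2 fold change, CDKN2B included, was -0.57. CDKN1A, which encodes the inhibitor p21, had 384 and 322 CPM for Scr and 138 and 132 for miR-27a KO, a log2 fold change of -1.39 (adjusted p = 0.00558, edgeR's quasi-likelihood test). In the same order, CCND2, a D-type cyclin, had 8.55 and 8.17, then 3.27 and 2.11 CPM, and CCND3, another, 35.9 and 36.2, then 21.2 and 19.99. CDKN2B, which encodes the inhibitor p15, had 54 counts over the Scr libraries and 3 over those of miR-27a KO, 20.4 times lower for depth (95% exact interval 6.63 to 102, counting error only). CDKN2B passed the filter on low counts through the Scr libraries alone, which favoured a fall, so its call says nothing of the list. With CCNE1, the genes that fell were cyclins and inhibitors alike. Their count was 0 with all libraries in 1 fit, 1 without miR-27a KO replicate 1 and 1 without its replicate 2, where 61 of 14163, 313 of 14302 and 252 of 14292 genes were called lower. Without Scr replicate 2, 1 gene was called higher, where 1908 of 14296 genes were. After miR-23a KO edgeR called 0 of 14, where 0% of 13786 genes were called. At an unadjusted p under 0.05 stood 1 of the 14 and 332 of all genes, and DESeq2 and limma-trend called 0 of the 14. Without miR-23a KO replicate 1, 2 were called lower, where 256 of 14417 genes were, and without its replicate 2, 2 higher and 2 lower, where 1697 of 14136 genes were called higher and 933 lower. CDKN2A, which encodes the inhibitor p16, had 17.2 and 14.2 CPM for Scr and 12.6 and 2.58 for miR-23a KO.

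Of the 3 pocket proteins, RBL2 rose after miR-27a KO, where 3.52% of all genes did, from 28.6 and 31.9 CPM to 48.03 and 45.7. Its log2 fold change was 0.63, and 0.48 and not called with GC content and length corrected. The call was also lost with no filter, with all libraries in 1 fit, without Scr replicate 1 and without either miR-27a KO library, while 3 of 3 were called higher without Scr replicate 2, where 1908 of 14296 genes were. RBL1 had 10.7 and 16.01 CPM for Scr and 19.9 and 20.5 for miR-27a KO and did not pass the test. After miR-23a KO edgeR called 0 of 3, with 0 at an unadjusted p under 0.05. In that comparison edgeR called 0% of 13786 genes, and 332 genes stood at an unadjusted p under 0.05. After miR-27a KO 4447 of 13820 genes stood there. The same shares apply to the lists that follow. Of the 7 genes of the MuvB core, B-MYB and FOXM1, which take part in cell cycle repression and mitotic activation, edgeR called 0 after either knockout, with 1 at an unadjusted p under 0.05 after miR-27a KO and 0 after miR-23a KO. LIN9, of that core, had 1.95 and 2.90 CPM for Scr and 3.88 and 5.81 for miR-23a KO. Of the 4 genes of E2F protein turnover 0 were called by edgeR after either knockout, with 2 and 0 at an unadjusted p under 0.05, and CCNA2 had 47.3 and 71.7 CPM for Scr and 91.1 and 104 for miR-23a KO. Of the 10 genes of the E2F6 complex 0 were called by edgeR after either knockout, with 0 at an unadjusted p under 0.05, and RNF2 had 12.2 and 11.9, then 13.2 and 21.96. STAG3, the 1 gene tested of 3 germline genes that E2F6 represses, was not called, with 13.9 and 11.96, then 6.09 and 8.02. For these lists DESeq2 and limma-trend also called 0 wherever edgeR did. Other settings gave calls, as they did over all genes. With GC content and length corrected, 666 of 13194 genes were called higher after miR-27a KO and 778 lower. After miR-27a KO, turnover had 1 higher with GC content and length corrected, and without Scr replicate 2 it had 1 lower, while the MuvB list and the E2F6 complex had 1 and 1 higher, where 1908 of 14296 genes were called higher and 1808 lower. After miR-23a KO, without its replicate 2, the MuvB list had 2 higher and 1 lower, turnover 1 higher, the E2F6 complex 2 higher and the pocket proteins 1 lower, where 1697 of 14136 genes were called higher and 933 lower. Without its replicate 1, the E2F6 complex and the pocket proteins had 1 and 1 higher, where 338 of 14417 genes were called higher and 256 lower.

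Of the 7 apoptosis genes that E2F1 activates, PMAIP1 fell after miR-27a KO, where 6.74% of all genes did. PMAIP1 had 22 counts over the Scr libraries and 0 over those of miR-27a KO. It passed the filter on low counts through the Scr libraries alone, which favoured a fall, so its call says nothing of the list. With 3 counts over the group standing for the 0, it was at least 8.32-fold lower, counting error only. The call was lost with no filter, with all libraries in 1 fit and without either miR-27a KO library, and without either Scr library PMAIP1 did not pass the filter on low counts. Without Scr replicate 2, 2 other genes of the list were called higher and 1 lower, where edgeR called 0 others with all libraries kept and 1908 of 14296 genes were called higher and 1808 lower in that fit. The list's median log2 fold change was 0.018, the same with PMAIP1 at that bound. After miR-23a KO edgeR, DESeq2 and limma-trend called 0 of 7, with 0 at an unadjusted p under 0.05. Over all 13786 genes edgeR called 0% there, and 332 stood at an unadjusted p under 0.05. Without miR-23a KO replicate 2, 1 was called lower, where 933 of 14136 genes were. After miR-23a KO PMAIP1 had 1.90 and 2.80 CPM against 0.834 and 0.675 for Scr. Of 5 partners of E2F4 and E2F5 in multiciliated cells 2 were tested. CCNO fell after miR-27a KO, where 6.74% of all genes did. It had 65 counts for Scr and 1 for miR-27a KO, 73.7 times lower for depth (95% exact interval 12.8 to 2957, counting error only). CCNO too passed the filter on low counts through the Scr libraries alone, so its call says nothing of the list. The call was lost with all libraries in 1 fit and without miR-27a KO replicate 1, and 2 genes were called lower without Scr replicate 1, where 1240 of 14208 genes were. After miR-23a KO, 1 was called higher without miR-23a KO replicate 2, where 1697 of 14136 genes were.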

How the data were processed

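RNA-seq of 6 HepG2 libraries was used. The authors deposited expected counts per gene, under column names that say FPKM. That reading rests on library totals, which are unequal and in the range of read counts. The submitters' notes name HISAT, StringTie, Cufflinks and GATK without versions. Values were rounded. Each pair of groups was fitted alone in edgeR 4.0.16 (R 4.3.3) with filterByExpr, TMM, glmQLFit and glmQLFTest, and p-values were adjusted over all genes tested by Benjamini-Hochberg. CPM used TMM factors of all libraries together, 0.796 to 1.17. Alternatives were median-ratio scaling, DESeq2 1.42.0, limma-trend (limma 3.58.1, prior count 2), no filter, all libraries in 1 fit, a block for replicate number, a loess correction of GC content and length (span 0.5, degree 2), the last pair together, and leaving out each library. Transcript lengths, GC content and gene positions came from GENCODE 29. Members and lists were chosen with earlier results of these data known. Named were all members, up to 4 genes per list and knockout (called first, then over 1.5-fold without overlap, by size), and the 5 genes nearest E2F1, E2F8 and TFDP1 among those with a mean of at least 50 counts. MCM4, CCND3, CDKN2C, CDC25A, CHAF1A and the markers singled out were chosen after their values were seen.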

Additional observations from a re-analysis of the deposited data

Results flagged for a closer look

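E2F2, 1 of 10 members, and 4 of 84 listed genes (4.76%), PMAIP1, CDKN2C, CDC25A and CHAF1A, lay above both Scr libraries in both miR-23a KO libraries and below them in both of miR-27a KO. Over all 13410 genes tested in every comparison, 5.86% lay on opposite sides in this way, in either order, so the listed genes did so no more often than all genes. E2F2 had CPM of 47.3 and 55.8 in the Scr libraries, 79.9 and 64.3 in those of miR-23a KO, and 45.4 and 42.6 in those of miR-27a KO. Its log2 fold change of miR-23a KO against miR-27a KO was 0.72 (SE 0.324) and did not pass edgeR's quasi-likelihood test (adjusted p = 0.664, Benjamini-Hochberg). With GC content and length corrected, its log2 fold change after miR-27a KO was 0.026, no longer under 0. PMAIP1 had CPM of 0.834 and 0.675 for Scr, 1.90 and 2.80 for miR-23a KO and 0 in both miR-27a KO libraries. The fitted log2 value between the knockouts was 8.26 (adjusted p = 0.149 in edgeR), which did not pass either and depends on the prior count, since 1 group is at 0. CDKN2C, which encodes the inhibitor p18, had CPM of 22.04 and 22.02 for Scr, 24.6 and 30.2 for miR-23a KO and 16.96 and 16.1 for miR-27a KO. CDC25A, a phosphatase of the G1/S transition, had 38.5 and 41.9 for Scr, 48.4 and 47.6 for miR-23a KO and 30.5 and 32.2 for miR-27a KO. CHAF1A, a subunit of a histone chaperone, had 75.8 and 72.1 for Scr, 92.5 and 101 for miR-23a KO and 71.5 and 67.4 for miR-27a KO. Between the knockouts their log2 fold changes were 0.74, 0.62 and 0.49, and none passed edgeR's quasi-likelihood test (adjusted p = 0.664, 0.704 and 0.786).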

How the results depend on the processing

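After miR-27a KO, 4 E2F and DP genes were called, 0 with all libraries in 1 fit, 2 with GC content and length corrected and the replicate block, 3 with the replicate block alone (E2F7 lost), and 0 to 5 with 1 library left out. Target genes called higher were 4, and 2 with no filter on low counts, 0 in 1 fit, 7 with GC content and length corrected, 8 with the replicate block as well, and 0 to 11 with 1 library left out. The members' median log2 fold change was 0.031 to 0.10 with 1 library left out. After miR-23a KO the same ranges were 0 to 3 members called, 0 to 9 targets called higher and a median of -0.15 to 0.33. Between the knockouts 0 to 7 members were called. Without miR-23a KO replicate 1 it was 1, where 2772 of 14361 genes were called higher and 2135 lower, and without replicate 2 it was 7, where 3584 of 14207 genes were called higher and 3719 lower. A lone library was then assumed to vary like the others. After miR-27a KO, 624 of 13820 genes were called higher and 1069 lower with the replicate block alone. With GC content and length corrected as well, 837 of 13194 genes were called higher and 911 lower.

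Signs turned among members not called with all libraries kept. After miR-23a KO, E2F3 (0.030) was -0.036 with median-ratio scaling, -0.036 in DESeq2, -0.31 in limma-trend, -0.073 in 1 fit, -0.30 with the replicate block, -0.052 with GC content and length corrected and -0.17 with both. With that correction E2F5 was -0.20 and TFDP2 -0.13, and with the replicate block as well -0.23 and -0.13. With 1 library left out the values were E2F1 -0.12 to 1.62, E2F3 -1.36 to 0.63, E2F4 -0.32 to 0.60, E2F5 -0.15 to 0.23, E2F6 -0.67 to 0.20, E2F7 -0.61 to 1.24, TFDP1 -0.14 to 0.31 and TFDP2 -0.52 to 0.46. The lowest of E2F3, without miR-23a KO replicate 2, was itself called lower by edgeR's quasi-likelihood test (adjusted p = 0.0326). After miR-27a KO, E2F1 was 0.16, E2F2 0.026 and E2F6 -0.040 with GC content and length corrected, and 0.18, 0.038 and -0.033 with the replicate block as well. With 1 library left out the values were E2F6 -0.021 to 0.20 and TFDP1 -0.080 to 0.23. The causes were not tested.

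Over all genes, edgeR called 487 higher and 931 lower after miR-27a KO, 304 higher and 588 lower with no filter, 3 higher and 61 lower in 1 fit, 666 higher and 778 lower with GC content and length corrected and 1908 higher and 1808 lower without Scr replicate 2. The higher share of calls was 34.3%, and over all settings it ran from 4.69% in 1 fit to 51.3% without Scr replicate 2. After miR-23a KO the calls were 0 higher and 0 lower, 4 higher and 59 lower in DESeq2, 7 higher and 62 lower with the replicate block and 1697 higher and 933 lower without miR-23a KO replicate 2. Between the knockouts they were 0 higher and 0 lower, 259 higher and 218 lower in DESeq2 and 211 higher and 189 lower with the replicate block. Replicate numbers need not pair libraries: deviations of same-numbered libraries correlated over genes at 0.149 between Scr and miR-23a KO and 0.0103 between Scr and miR-27a KO.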
